A study of Mus musculus with 2 samples.

Results

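The genes described here encode the nuclear subunits of the 5 complexes of oxidative phosphorylation. They were taken by symbol: every row of the gene list whose name begins with Ndufa, Ndufb, Ndufc, Ndufs, Ndufv, Sdha, Sdhb, Sdhc, Sdhd, Uqcr, Cox4i, Cox5, Cox6, Cox7, Cox8 or Atp5, without assembly factors (Ndufaf, Sdhaf) and without the 14 rows whose symbols carry -ps. The rule gave 92 of 55357 rows, of which 41 belong to complex I, 4 to complex II, 8 to complex III, 21 to complex IV and 18 to complex V. Ndufa4 and its paralogue Ndufa4l2 were counted with complex IV, where the Ndufa4 protein sits despite its name. Of the 92 rows, 5 are retrocopies (Ndufa11b, Ndufb11b, Ndufb4c, Ndufs6b and Cox6c2), 8 are isoforms known mainly from other tissues or from hypoxia, and 1 is a readthrough row of Atp5o.

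The RNA came from cells positive for CD45 and CD11b, sorted out of cortical tissue of mice aged 8 weeks, and was profiled by 10x Genomics 3′ single-cell sequencing. The wild-type group is 1 library and the Msn knockout group is 1 library, each from the pooled cortices of 5 to 6 mice. Msn encodes moesin, which links the plasma membrane to cortical actin, and the knockout is labelled as a loss of moesin without a cell type or a driver. Genotype and library cannot be told apart, so no difference below has a replicate check and none was tested. Intervals are exact 95% intervals and cover counting error only.

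In oxidative phosphorylation, complexes I and II pass electrons from NADH and succinate to ubiquinone, complex III passes them to cytochrome c, and complex IV passes them to oxygen. Complexes I, III and IV pump protons across the inner mitochondrial membrane, and complex V, the ATP synthase, uses the gradient to make ATP. Apart from complex II, each complex joins subunits encoded in the nucleus with subunits encoded in mitochondrial DNA, so both genomes have to be expressed for a complete complex. Microglia, the resident macrophages of the brain, use both glycolysis and oxidative phosphorylation, and the balance is known to shift with activation.

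There were 5842 barcodes with 68576464 UMIs for wild-type and 9038 with 67575835 UMIs for knockout, and 13 barcodes occurred in both. Microglia-like cells, named from P2ry12 and 11 further markers, numbered 5218 in the wild-type library (63742661 UMIs) and 4575 in the knockout library (38126358 UMIs). Monocyte-like cells, named from the markers of patrolling (Ace) or classical (Ly6c2) monocytes, numbered 58 (426375 UMIs) and 738 (4343401 UMIs). Border macrophage-like cells, named from Mrc1 and other markers, numbered 28 (136157 UMIs) and 110 (522632 UMIs). Levels are given in CPM, the UMIs of a gene over all UMIs of its class, scaled as counts per mega-count, and are not divided by transcript length because each UMI marks the 3′ end of 1 molecule. P2ry12 stood at 2460 and 2457 CPM in microglia-like cells and at 95.8 to 103 CPM in monocyte-like cells. Mrc1 stood at 4157 and 1701 CPM in border macrophage-like cells, and at 25.9 CPM or less in the other classes. Msn was 321 CPM in wild-type and 20.7 CPM in knockout microglia-like cells, 849 against 56.4 CPM in monocyte-like cells and 235 against 21.0 CPM in border macrophage-like cells.

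Several values differed between the classes or between the libraries, and their part in the results was not tested. The summed microglia markers were nearly equal between the libraries, at 30828 and 31503 CPM in microglia-like cells. They were also present at 2005 and 1852 CPM in monocyte-like cells and at 4869 and 4982 CPM in border macrophage-like cells. Microglia-like cells of the wild-type library lay mostly in clusters 0 and 2, whose leading genes include mitochondrial ribosomal RNA and Msn, and those of the knockout library in clusters 1 and 3, where Hspa1a and Hspa1b, which encode heat-shock proteins, were among the leading genes. The median share of UMIs from mitochondrially encoded genes was 1.41% in wild-type and 0.470% in knockout microglia-like cells. As mixed cells, 41.4% of wild-type and 32.5% of knockout monocyte-like cells and 72% and 76.3% of border macrophage-like cells were left out because their microglia markers reached a limit or those of another class matched their own.

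Nuclear subunit RNA made up 0.852% of the UMIs of wild-type microglia-like cells (0.849 to 0.854%) and 1.16% of those of knockout microglia-like cells (1.156 to 1.163%). By complex, wild-type microglia-like cells held 0.297% of UMIs in complex I, 0.0305% in complex II, 0.0834% in complex III, 0.215% in complex IV and 0.225% in complex V. Knockout microglia-like cells held 0.403%, 0.0359%, 0.125%, 0.302% and 0.294% in the same order. The summed level was therefore 1.36-fold higher in the knockout library for complex I, 1.17-fold for complex II, 1.5-fold for complex III, 1.40-fold for complex IV and 1.30-fold for complex V. The wild-type and knockout intervals did not overlap for any of the 5 complexes, but counting intervals are narrow at this depth. The summed citric acid cycle enzymes, at 0.982-fold, also had a log2 interval clear of no difference (−0.047 to −0.006). The share of all measured genes without overlap is not given, so the separation is not particular to the complexes.

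**Figure D1:**
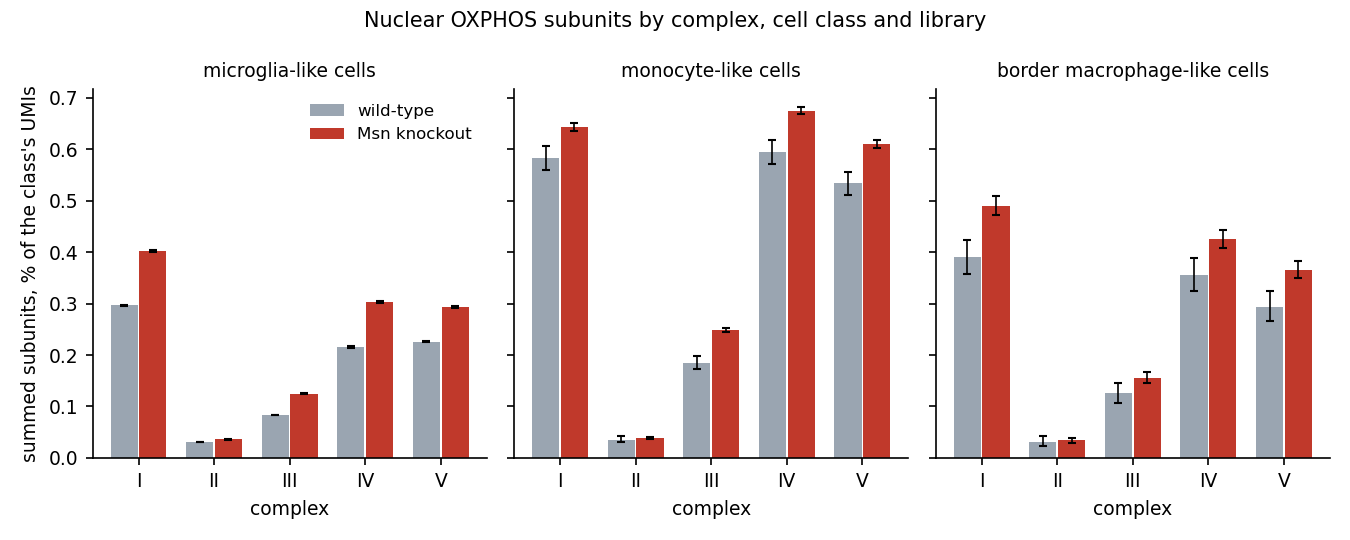
Summed UMIs of the nuclear subunits of each complex (x axis) as a percent of all UMIs of the class (y axis), in microglia-like, monocyte-like and border macrophage-like cells of the wild-type (grey) and Msn knockout (red) libraries; error bars are exact 95% binomial intervals for counting error. Microglia-like cells of wild-type mice held 0.297% of UMIs in complex I and those of knockout mice 0.403%, and monocyte-like cells stood above microglia-like cells for complexes I, III, IV and V.

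To set single genes beside the rest of the transcriptome, knockout over wild-type CPM was expressed as a log2 ratio relative to the median of all genes measured at a mean of at least 10 CPM, which was −0.26 in microglia-like cells. By this measure 78 of the 92 members could be compared, and the other 14 were the retrocopies, the tissue isoforms and the readthrough row, all below the limit. Of the 78, 61 were at least 1.5-fold higher in the knockout library and 0 were at least 1.5-fold lower, where 13.6% of 8272 measured genes were higher and 11.8% lower. The median relative log2 ratio of the members was 0.74, against 0 for all measured genes by construction, but it was −0.06 when ratios were taken relative to the median of the cytosolic ribosomal protein genes, and then 0 members were higher and 5 lower. Those genes' own median was 0.80 relative to all measured genes, so the median measured gene was itself over 1.5-fold lower on that scale. On the plain CPM scale 21 members were at least 1.5-fold higher and 0 lower, where 4.09% of measured genes were higher and 27.9% lower, and 6 of the 78 had a lower CPM in the knockout library. Members past 1.5-fold numbered 28 of 37 measured in complex I, 2 of 4 in complex II, 7 of 8 in complex III, 12 of 12 in complex IV and 12 of 17 in complex V, but medians relative to the ribosomal protein genes were below 0 for complexes I, II, IV and V.

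**Figure D2:**
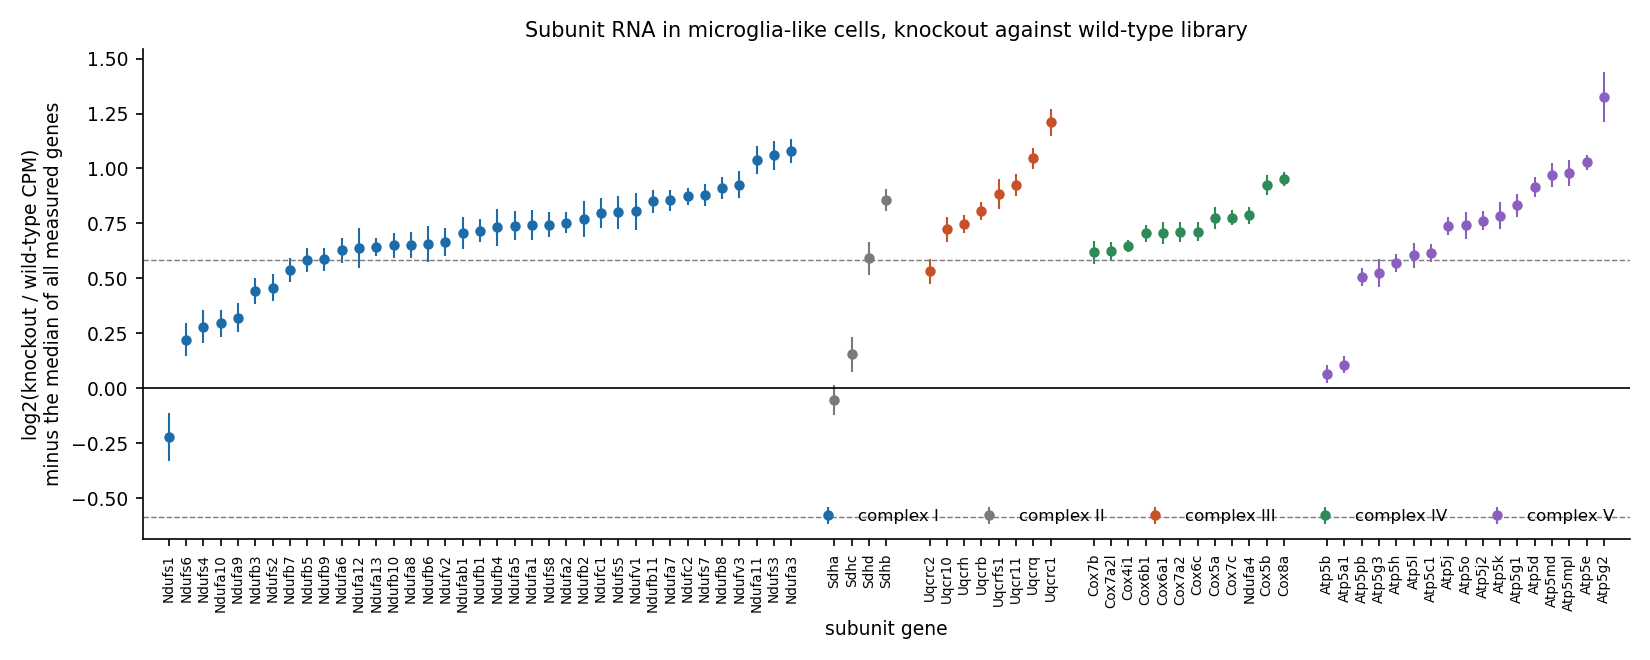
Each point is 1 of the 78 measured subunit genes (x axis, grouped by complex and ordered by ratio), with its log2 CPM ratio, knockout over wild-type, in microglia-like cells minus the median of all measured genes (y axis) and its exact 95% interval; dashed lines mark 1.5-fold. Values ran from −0.22 for Ndufs1 to 1.33 for Atp5g2, all 12 complex IV genes were above the upper line, and relative to the ribosomal protein genes the median of the 78 was −0.06.

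Complex I oxidises NADH. Its core subunits carry the flavin and the iron-sulfur clusters, and about them sit accessory subunits needed for assembly and stability. The 3 complex I genes with the highest level in microglia-like cells were accessory subunits of the membrane or matrix arm. Ndufc2 (chromosome 7, 97049210 to 97057022, GRCm39) stood at 169 CPM (165 to 172) in wild-type and 257 CPM (252 to 262) in knockout cells, a 1.53-fold higher level. Ndufa13 stood at 169 and 219 CPM, and Ndufa7 at 123 and 185 CPM. The highest ratio belonged to Ndufa3, a small membrane-arm subunit, at 84.1 CPM in wild-type and 148 CPM in knockout cells, with a relative log2 ratio of 1.08 (1.02 to 1.13). The lowest belonged to Ndufs1 (chromosome 1, 63182058 to 63216236), the largest core subunit and a carrier of iron-sulfur clusters, at 36.1 CPM (34.7 to 37.7) and 25.9 CPM (24.3 to 27.5), with a relative log2 ratio of −0.22 (−0.33 to −0.11). Ndufs1 was thus lower in the knockout library on both scales, while 36 of the 37 measured complex I genes lay above the median of all genes.

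The 7 core subunits of complex I and the 30 accessory subunits had similar medians in this comparison, 0.74 and 0.71, with 5 of 7 and 23 of 30 past 1.5-fold. Ndufs3 and Ndufs7, both core subunits of the quinone module, had 57.6 and 104 CPM in wild-type and 100.2 and 159 CPM in knockout cells. Among accessory subunits, 6 of 9 in the matrix arm and 16 of 20 in the membrane arm were past 1.5-fold higher, where 13.6% of all measured genes were. Ndufs4, Ndufs6, Ndufa9 and Ndufa10 lay within 1.5-fold, at relative log2 ratios of 0.22 to 0.32.

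Complex II, succinate dehydrogenase, has 4 subunits and no mitochondrially encoded part, and its genes split. Sdhb, the iron-sulfur subunit, stood at 116 CPM (114 to 119) in wild-type and 176 CPM (171 to 180) in knockout cells. Sdha, the flavoprotein that binds succinate, stood at 79.1 CPM (77.0 to 81.4) and 63.6 CPM (61.1 to 66.2), a ratio of 0.803, while Sdhc, a membrane anchor, stood at 56.1 and 52.1 CPM. Sdhd, the other anchor, stood at 53.6 and 67.3 CPM, just past 1.5-fold relative to the median. Sdha was lower in the knockout library in CPM and, at a relative log2 ratio of −0.05 (−0.12 to 0.02), not distinguishable from the median of all genes at this depth.

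Complex III, the cytochrome bc1 complex, had the largest summed ratio. Uqcrh, the hinge protein, had the highest level of the complex at 170.0 CPM (167 to 173) in wild-type and 238 CPM (233 to 243) in knockout cells. Uqcrb stood at 156 and 227 CPM, and Uqcrq at 107 and 184 CPM. Uqcrc1, a large core protein facing the matrix, had the highest ratio of the complex, with 63.5 CPM (61.6 to 65.5) against 122 CPM (119 to 126) and a relative log2 ratio of 1.21 (1.15 to 1.27). Uqcrc2, its partner, stood at 93.6 and 113 CPM with a relative log2 ratio of 0.53, the only gene of the complex within 1.5-fold. The Rieske protein gene Uqcrfs1 stood at 55.7 and 85.6 CPM.

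Complex IV, cytochrome c oxidase, has its catalytic subunits in mitochondrial DNA, so the nuclear genes encode only supporting subunits. They had the narrowest range of the larger complexes, with relative log2 ratios from 0.62 (Cox7b and Cox7a2l) to 0.95 (Cox8a). Cox4i1 (chromosome 8, 121391505 to 121400950), a regulatory subunit, had the highest level of all members at 368 CPM (363 to 372) in wild-type and 480 CPM (473 to 487) in knockout cells. Cox8a stood at 260 and 419 CPM, and Cox7c at 235 and 335 CPM. Ndufa4 stood at 186 and 267 CPM.

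In complex V relative log2 ratios ran from 0.06 for Atp5b to 1.33 for Atp5g2. Atp5g2 (chromosome 15, 102571295 to 102580787), 1 of 3 genes for the c subunit of the rotor ring, had the highest ratio of all members at 17.4 CPM (16.4 to 18.5) in wild-type and 36.4 CPM (34.5 to 38.3) in knockout cells. Its paralogues Atp5g1 and Atp5g3, which encode the same mature protein, stood at 106 against 157 CPM and at 73.6 against 88.2 CPM, so the order Atp5g1, Atp5g3, Atp5g2 in CPM (per 3′ UMI, not per length) was the same in both libraries. Atp5b and Atp5a1, the β and α subunits that form the catalytic head, stood at 236 and 243 CPM in wild-type cells and at 205 and 218 CPM in knockout cells. Those ratios, 0.872 and 0.897, were the lowest of the complex, although Atp5e, a small subunit of the central stalk, stood at 203 CPM (199 to 206) and 344 CPM (338 to 350). The genes for the catalytic head therefore had a lower CPM in the knockout library and lay close to the median of all genes, at relative log2 ratios of 0.06 and 0.11.

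Within single microglia-like clusters the difference between the libraries was not uniform. In cluster 7, of 273 wild-type and 282 knockout cells, members made up 0.873% (0.854 to 0.892%) and 1.15% (1.127 to 1.174%) of UMIs, and in the dividing cells of cluster 17, with 12 and 11 cells, 0.895% and 1.41%. In cluster 0, of 2894 wild-type and 80 knockout cells, the shares were 0.908% and 0.959% (0.926 to 0.994%). In cluster 1, with 109 and 2733 cells, they were 1.06% (1.025 to 1.091%) and 1.17% (1.165 to 1.176%). In cluster 3 the 24 wild-type cells held 1.17% (1.122 to 1.222%) and the 1461 knockout cells 1.15% (1.150 to 1.159%), which were not distinguishable at this depth. The few wild-type cells placed with mostly knockout clusters thus had shares nearer to those clusters than to the rest of their library, which held 0.823% in cluster 2. Clusters were formed from the same cells' expression, so these shares describe the clusters and test nothing.

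**Figure D3:**
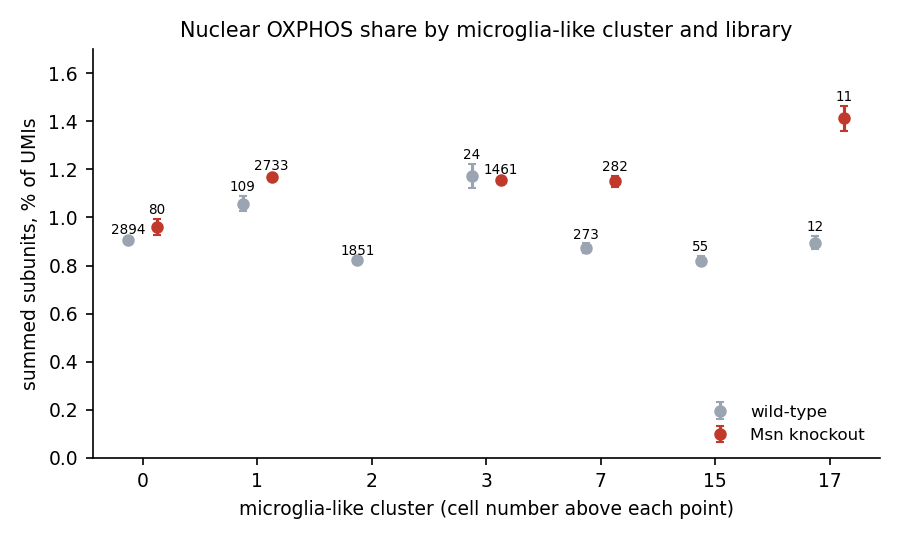
Share of UMIs from all members (y axis, percent, exact 95% intervals) in each microglia-like cluster with at least 10 cells (x axis), for the wild-type (grey) and Msn knockout (red) libraries, with the number of cells above each point. In clusters 7 and 17 the knockout point lies above the wild-type point, in cluster 3 both lie at 1.15 to 1.17%, and clusters 2 and 15 have a wild-type point only.

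The share was also compared at matched depth. In each of 5 depth ranges the members' share was higher in knockout than in wild-type microglia-like cells, for example 0.904% against 1.15% in cells of 4000 to 8000 UMIs. With each cell thinned to 2000 UMIs, the median wild-type cell had 17 member UMIs and the median knockout cell 23, with quartiles of 14 to 21 and 19 to 27, after 246 and 344 shallower cells had been left out. In cells of 4000 to 8000 UMIs, 40 members were at least 1.5-fold higher, against 61 in all cells. The share of all measured genes in cells of that depth is not given. Before thinning, the median shares per cell were 0.846% and 1.13%. The distributions overlapped, since 5% of knockout cells had 14 or fewer and 5% of wild-type cells 26 or more.

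Members have short transcripts, with a median of 1140 bases for the 78 measured members against 3377.5 bases for measured genes overall. Ratios moved with length among other genes too. The 435 other genes under 1000 bases had a median relative log2 ratio of 0.58 with 48.3% past 1.5-fold higher, and the 36 members of that length had 0.75 with 94.4%. Between 1000 and 2000 bases the medians were 0.43 for 1457 other genes and 0.69 for 22 members, and between 2000 and 4000 bases 0.08 for 3015 other genes and 0.51 for 15 members. Above 4000 bases 3279 other genes had a median of −0.33 and the 5 members 0.59. Across the 78 members, the ratio had a Pearson r of −0.41 and a Spearman rho of −0.31 with the log10 of transcript length, and across 8186 other genes −0.52 and −0.59. All these genes share 1 pair of libraries and are not independent replicates. The 6 lowest ratios (Ndufs1, Sdha, Atp5b, Atp5a1, Sdhc and Ndufs6) belonged to transcripts of 1926 to 3613 bases, all longer than the members' median, although Sdhb, at 4030 bases, was past 1.5-fold higher. In the comparisons of the other classes given below, other genes under 1000 bases also had a positive median and those above 4000 bases a negative one. The part of transcript length in the members' ratios was not tested.

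**Figure D4:**
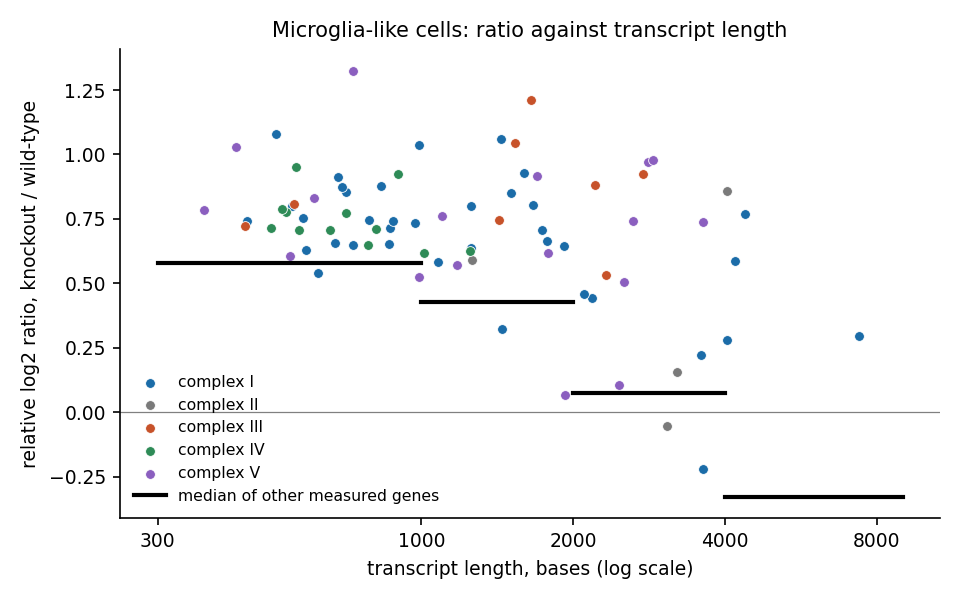
Relative log2 ratio (knockout over wild-type) in microglia-like cells (y axis) against the length of the canonical transcript in bases (x axis, log scale) for the 78 measured members, coloured by complex; black lines are the medians of other measured genes under 1000, from 1000 to 2000, from 2000 to 4000 and above 4000 bases. The medians of other genes go from 0.58 in the shortest range to −0.33 in the longest, and those of the members from 0.75 to 0.59.

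The mitochondrially encoded partners went the other way: their messenger RNA made up 0.871% of UMIs in wild-type and 0.360% in knockout microglia-like cells. Of 13 measured mitochondrially encoded rows, 12 were at least 1.5-fold lower in the knockout library and 0 higher, where 11.8% and 13.6% of measured genes were. The median relative log2 ratio of these rows was −1.65. Their list also takes in the mitochondrial ribosomal RNAs, which are not subunits. mt-Nd1, a complex I core subunit, stood at 1786 CPM in wild-type and 680 CPM in knockout microglia-like cells, and mt-Co1, the catalytic subunit of complex IV, at 411 and 160 CPM. mt-Cytb of complex III stood at 2524 and 1542 CPM and was the only row within 1.5-fold. Per UMI of mitochondrially encoded messenger RNA there were 0.978 member UMIs in wild-type and 3.22 in knockout microglia-like cells. The same ratio was 3.65 and 8.13 in monocyte-like cells and 1.34 and 3.47 in border macrophage-like cells, so it was higher in the knockout library in all 3 classes.

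Other genes around the respiratory chain differed by list. Of 9 electron and metabolite carriers, 7 were higher in knockout microglia-like cells and 0 lower, with a median relative log2 ratio of 0.66: Cycs, cytochrome c itself, stood at 58.0 and 84.9 CPM. Of 37 measured assembly factors, 8 were higher and 0 lower, with a median of 0.40, where 13.6% of all measured genes were higher and 11.8% lower, the shares to read each list's count against. Of 13 citric acid cycle enzymes, 2 were higher (Idh3b and Mdh2) and 0 lower, with a median of 0.27, and citrate synthase (Cs) stood at 35.5 and 26.5 CPM. Of 9 measured regulators of mitochondrial gene expression, 0 were higher and 1 lower (Pprc1, 22.4 against 10.6 CPM), and the median was −0.10. Nrf1 stood at 42.6 and 28.5 CPM, and Gabpa at 36.7 and 22.2 CPM. Mitochondrial ribosomal proteins had 31 of 77 higher and 0 lower (median 0.56), cytosolic ribosomal proteins 58 of 83 and 0 (median 0.80), and the proteasome 15 of 37 and 0 (median 0.50). The directions of the lists with medians from 0.27 to 0.66 turn when the ribosomal protein genes are taken as the reference, since their own median lies above them.

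Monocyte-like cells held more nuclear subunit RNA than microglia-like cells in both libraries, 1.93% (1.89 to 1.97%) of UMIs in the wild-type and 2.22% (2.20 to 2.23%) in the knockout library. The summed level was 2.27-fold and 1.91-fold that of microglia-like cells. In the wild-type library 64 of 78 measured members were at least 1.5-fold higher in monocyte-like cells and 0 lower, where 30.2% of measured genes were higher and 30.3% lower. In the knockout library 61 were higher, where 29.6% of measured genes were, and 1 lower (Ndufa9), where 28.5% were. In both libraries 59 of 78 were higher, where 25.1% of genes measured in both were higher in both. The medians were 1.34 and 1.15 relative to all measured genes, but −0.49 and −0.48 relative to the cytosolic ribosomal protein genes, which stood higher still in monocyte-like cells (81 of 84 and 80 of 84 past 1.5-fold).

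The complexes differed in this comparison, in which transcript lengths were not matched. All 12 measured genes of complex IV and all 17 of complex V were past 1.5-fold higher in both libraries, although their medians were below 0 relative to the ribosomal protein genes. The summed level of complex IV was 2.76-fold and 2.23-fold that of microglia-like cells, that of complex V 2.37-fold and 2.08-fold, that of complex III 2.22-fold and 1.99-fold and that of complex I 1.97-fold and 1.60-fold. Complex II stood at 1.17-fold and 1.08-fold, the first with an interval that included no difference, with 1 of 4 genes past 1.5-fold in each library. Complex II made up 3.58% of the members' UMIs in wild-type microglia-like cells and 1.84% in wild-type monocyte-like cells.

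Within complex I the core and the accessory subunits had different medians, and their transcript lengths were not matched. The 7 core genes had median relative log2 ratios of 0.56 and 0.29, with 3 and 1 past 1.5-fold, and a summed level 1.24-fold and 1.04-fold that of microglia-like cells. The 30 accessory genes had medians of 1.29 and 1.12, with 24 and 23 past 1.5-fold, and a summed level 2.10-fold and 1.7-fold. Ndufb1 (chromosome 12, 101934343 to 101943331), a small membrane-arm subunit, had the highest ratio of all members: 104 and 142 CPM in wild-type and knockout microglia-like cells and 570 and 589 CPM in monocyte-like cells, a difference of 5.49-fold and 4.14-fold. Atp5l, a membrane subunit of complex V, stood at 89.1 and 113 CPM in microglia-like cells and at 371 and 345 CPM in monocyte-like cells. Atp5mpl stood at 68.7 and 113 CPM and at 246 and 365 CPM. Cox5a stood at 113 and 161 CPM and at 415 and 480 CPM.

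A few members did not share the higher level of monocyte-like cells. Ndufa9, an accessory subunit of the matrix arm, stood at 78.7 and 82.0 CPM in microglia-like cells and at 51.6 and 43.1 CPM in monocyte-like cells, giving relative log2 ratios of −0.33 (−1.04 to 0.23) and −0.62 (−0.84 to −0.41). Ndufc2 stood at 169 and 257 CPM and at 136 and 168 CPM, and Ndufab1, the mitochondrial acyl carrier protein, at 53.3 and 72.5 CPM and at 37.5 and 42.8 CPM. Ndufs1 and Sdha were within 1.5-fold of the median in both libraries. Ndufc2 was the highest complex I gene of microglia-like cells and lay below Ndufb1, Ndufa13 and Ndufa7 in monocyte-like cells of both libraries, and these levels are per 3′ UMI, not per length.

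**Figure D5:**
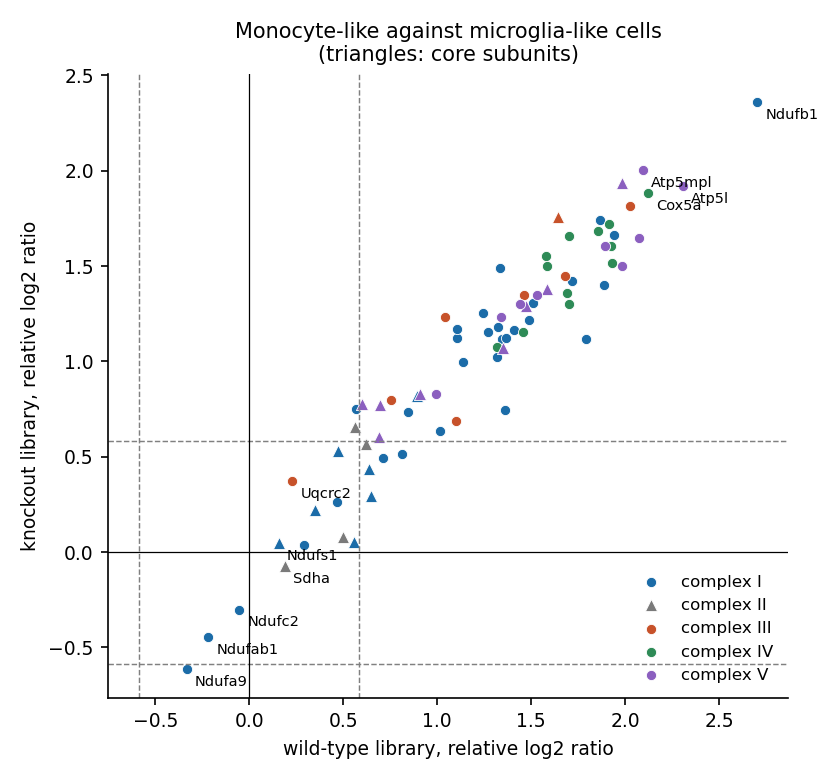
Relative log2 ratio of monocyte-like over microglia-like cells for the 78 members measured in both libraries, in the wild-type library (x axis) and the knockout library (y axis), coloured by complex, with triangles for core subunits; dashed lines mark 1.5-fold. Ndufb1 lies highest at 2.70 and 2.36, Ndufa9 lowest at −0.33 and −0.62, and relative to the ribosomal protein genes the medians of the members were −0.49 and −0.48.

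Classical monocyte-like cells stood above patrolling ones in both libraries. Members made up 2.10% (2.04 to 2.16%) of UMIs in 23 classical and 1.75% (1.69 to 1.81%) in 35 patrolling cells of the wild-type library, and 2.57% and 2.08% in 131 and 607 cells of the knockout library. With cells thinned to 2000 UMIs the medians were 42 and 35.5 member UMIs in wild-type cells and 51 and 41 in knockout cells. The 2 kinds were in different proportions in the libraries, and the knockout library was higher within each kind.

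The libraries were then compared within monocyte-like cells. Of 79 measured members, 25 were higher in the knockout library, where 17.2% of measured genes were, and 1 was lower (Cox6b2, with 6 wild-type UMIs), where 19.8% were. Cox6b2 reached the minimum mean CPM only through the wild-type cells. The median relative log2 ratio was 0.48, and −0.02 relative to the ribosomal protein genes. The summed level was 1.15-fold higher in the knockout library (1.10-fold for complex I, 1.09-fold for complex II, 1.34-fold for complex III, 1.13-fold for complex IV and 1.14-fold for complex V), and the interval for complex II included no difference. The count was not the same under other choices of cells. In cells with 4000 to 8000 UMIs, 43 members were past 1.5-fold (42 higher), from 33 wild-type cells with 196020 UMIs. Other counts were 40 with each cell thinned to 2000 UMIs (39 higher) and 43 with a marker gate per cell (42 higher). With mixed cells counted in, the count was 56 (56 higher). The share of all measured genes past 1.5-fold is not given for these settings, so these counts have no background beside them. Thinned wild-type cells held 114000 UMIs in all, against 426375 unthinned. On the plain CPM scale 7 members were higher and 4 lower, where 8.22% and 32% of measured genes were. Only 58 wild-type cells stand behind these values, and 4 members had an interval wholly past 1.5-fold. The share of all measured genes with such an interval is not given.

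Border macrophage-like cells lay between the other classes, at 1.2% of UMIs (1.14 to 1.26%) in the wild-type and 1.47% (1.44 to 1.5%) in the knockout library. The unnamed cluster 9, whose leading genes include Pf4 and Mrc1, was not counted among them and held 1.82% and 2.49%. Against microglia-like cells of the same library the summed level of the border macrophage-like cells was 1.40-fold and 1.27-fold higher. By complex it was 1.65-fold and 1.41-fold for complex IV, 1.51-fold and 1.24-fold for complex III, 1.31-fold and 1.22-fold for complex I, 1.30-fold and 1.24-fold for complex V, and 1.03-fold and 0.95-fold for complex II. In the wild-type library 26 of 78 measured members were higher, where 25.4% of measured genes were, and 2 were lower, where 25.7% were. In the knockout library 13 of 79 were higher, where 18.7% were, and 1 lower, where 17.2% were. The 13 include Cox6b2, which reached the minimum mean CPM only through the border macrophage-like cells. The counts of higher members are near the background shares, and fewer members were lower than the background share. The counts rest on how cells were chosen: in the knockout library 31 members were past 1.5-fold at Leiden resolution 1.0 (30 higher), 32 with a marker gate per cell (29 higher), 31 with at most 5% mitochondrial UMIs (30 higher), 36 with no mitochondrial filter (35 higher) and 0 with mixed cells counted in, which also gave 0 in the wild-type library. Among genes with at least 1 UMI in each group, 16 members were past 1.5-fold in the wild-type library (12 higher). The share of all measured genes is not given for these alternatives, so their counts have no background beside them. In both libraries 8 were higher (Atp5g2, Atp5k, Atp5mpl, Cox5a, Cox6b1, Cox6c, Cox8a and Ndufa6), where 11% of genes were, and 1 lower (Ndufa9), where 11.3% were. Atp5mpl stood at 191 and 195 CPM, Cox5a at 242 and 279 CPM and Atp5g2 at 36.7 and 61.2 CPM in border macrophage-like cells. Ndufa9 stood at 14.7 and 47.8 CPM. Wild-type values rest on few UMIs, with a median of 18.5 per measured member and as few as 2. Against microglia-like cells, 1 higher and 1 lower member had an interval wholly past 1.5-fold in the wild-type library. In the knockout library 2 higher and 0 lower members did. For these interval counts the share of all measured genes is not given. The median relative log2 ratio was 0.43 and 0.36 relative to all measured genes, but −0.07 and −0.08 relative to the ribosomal protein genes.

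Between the libraries 44 of 79 measured members were higher in knockout border macrophage-like cells, where 27.7% of measured genes were, and 0 were lower, where 25.1% were, with a median of 0.65, but −0.04 relative to the ribosomal protein genes. On the plain CPM scale 13 were higher and 2 lower, where 14.9% and 38.8% of measured genes were. Cox6b2, among the 44, reached the minimum mean CPM only through the knockout cells. The wild-type group is 28 cells, the median member had 18 UMIs there, and 4 members had an interval wholly past 1.5-fold. The share of all measured genes with such an interval is not given. The summed level was 1.23-fold higher in the knockout library, and the interval for complex II included no difference.

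Isoforms known from heart, muscle or testis stood below the widely expressed form of the same subunit in microglia-like cells. Cox4i1 stood at 368 to 999 CPM over the 6 class and library sums, and Cox4i2, the isoform of lung and hypoxia, had 4 UMIs in each library's microglia-like cells and 0 in the other classes. Cox6a1 stood at 112 and 152 CPM in microglia-like cells against 2.57 and 5.51 CPM for Cox6a2, the heart and muscle form. Cox6b1 stood at 184 and 250 CPM against 1.84 and 1.65 CPM for Cox6b2, the testis form. In the other classes Cox6b2 had few UMIs: 6 in wild-type and 26 in knockout monocyte-like cells (14.1 and 5.99 CPM), and 1 and 11 in border macrophage-like cells (7.34 and 21.0 CPM). Cox7a2 stood at 134 and 182 CPM and Cox7a2l, a factor in joining complexes III and IV, at 170 and 218 CPM, while Cox7a1 stood at 0.39 and 0.52 CPM. Cox7b stood at 111 and 142 CPM and Cox8a at 260 and 419 CPM, and Cox7b2 and Cox8c had 0 UMIs in every class and Cox8b 1 UMI. Ndufa4l2, which hypoxia raises in many cells, had 2 and 3 UMIs in microglia-like cells and 0 elsewhere. A count of 0 in 38126358 UMIs allows up to 3 UMIs.

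The family's promoters are known for binding sites of GABPA and other ETS factors, NRF1 and YY1. RefSeq windows of 300 bases on GRCm38.p6, from 250 bases before to 50 after the transcript start, matched 66 of the 78 measured members by symbol. They were searched on both strands for CCGGAAG (ETS), the NRF1 motif (GCGCA and GCGC with any 1 base between) and AAGATGGC (YY1). The letters AAG end CCGGAAG and begin AAGATGGC, so matches of these can overlap. At least 1 of the 3 stood in 57.6% of the 66 members and in 38.3% of 6480 other measured genes, and in 14.7% of all 32851 windows. CCGGAAG stood in 25.8% of members and 24.2% of other measured genes, the NRF1 motif in 25.8% and 13.5%, and AAGATGGC in 15.2% and 6.25%. Members with at least 1 of the 3 motifs and members with none had nearly equal medians for knockout over wild-type in microglia-like cells, 0.74 for 38 genes and 0.73 for 28. For monocyte-like over microglia-like cells the medians were both 1.34 in the wild-type library, and 1.19 and 1.14 in the knockout library. For each complex 1 member is shown, the highest in microglia-like cells with a motif within 100 bases before its start, with 1 chromosome left out of the choice. The 100 bases end at the base before the start and run 5′ to 3′ on the gene's strand, with motif matches on either strand in capitals, and a match is a description only.
Ndufb7, complex I, chr8:83566658-83566757, plus strand: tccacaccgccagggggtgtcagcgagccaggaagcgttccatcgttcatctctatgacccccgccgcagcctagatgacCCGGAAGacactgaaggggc
Sdha, complex II, chr13:74350241-74350340, minus strand: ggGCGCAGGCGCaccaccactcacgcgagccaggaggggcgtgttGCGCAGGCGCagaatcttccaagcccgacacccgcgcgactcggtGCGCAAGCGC
Uqcrh, complex III, chr4:116075071-116075170, minus strand: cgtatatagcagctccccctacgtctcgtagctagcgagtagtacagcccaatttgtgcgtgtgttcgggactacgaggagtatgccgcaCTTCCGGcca
Cox6b1, complex IV, chr7:30626115-30626214, minus strand: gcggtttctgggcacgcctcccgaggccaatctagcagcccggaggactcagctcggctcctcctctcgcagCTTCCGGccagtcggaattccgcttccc
Atp5c1, complex V, chr2:10080433-10080532, minus strand: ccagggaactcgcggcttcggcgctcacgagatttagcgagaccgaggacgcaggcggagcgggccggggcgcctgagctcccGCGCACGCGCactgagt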

How the data were processed

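The values deposited by the authors are whole UMI counts for each gene in each barcode. They come from Cell Ranger 7.0.0 per the file headers, although version 6.0 is named per the labels' protocols. Reads were mapped to GRCm39, and Seurat was used, per the submitters' processing notes. The filter on cells under 500 genes in the labels' protocols was not in force in these files, where 207 wild-type and 1463 knockout barcodes lie under it and the lowest depth is 500 UMIs. Kept were barcodes that reached 500 genes and had no more than 10% mitochondrial UMIs (5577 wild-type, 7573 knockout). The 2 libraries were joined and clustered by the Leiden method (leidenalg 0.10.2, resolution 0.6) from 2000 variable genes, 30 principal components and 15 neighbours. Python 3.11.15, numpy 2.4.6, scipy 1.17.1 and pandas 2.3.3 were used.

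Clusters were named from marker lists, by a rule that was revised once the clusters were known. A class other than microglia needed at least 5 of its markers in 20% of a cluster's cells. This kept out cluster 9, which held 0.699% of kept wild-type and 3.67% of kept knockout cells. No doublet caller was run. A cell of another class was left out as mixed when its summed microglia markers reached the microglial median divided by 3 (10321 CPM), or when another class's markers reached those of its own. Cells within 1.2-fold of that limit numbered 1 wild-type and 26 knockout for monocytes, and 5 and 16 for border macrophages.

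UMI counts were summed per class and library and divided by the class total to give CPM. Ratios used a prior of 0.5 UMIs and genes at a mean of at least 10 CPM over the 2 groups, and were centred on the median of the measured genes. A gene was called by size alone, at 1.5-fold. With 1 library per group no test was possible, so neither p-values nor standard errors are printed. Intervals are exact (Poisson for CPM, Clopper-Pearson for shares, conditional for ratios). The ratio script was tested on simulated data. Gene positions and canonical transcript lengths came from GENCODE vM39 on GRCm39, which matched 54749 of 55357 rows by identifier. Members, other gene lists and comparisons were chosen with earlier results of these data known. The named genes are, per complex, the 3 members highest in microglia-like cells and the highest and lowest ratio, with the members past 1.5-fold the same way in both libraries (3 largest each way) and the isoform pairs; further members are named where a count or a role called for it, after their values were seen. The closing section gives the effect of 17 alternatives, of which 1 (ribosomal protein genes as the reference) was chosen after seeing the data.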

Additional observations from a re-analysis of the deposited data

Results flagged for a closer look

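Cox6b2, the testis isoform of a complex IV subunit, was at least 1.5-fold lower in knockout monocyte-like cells (relative log2 ratio −1.05) and at least 1.5-fold higher in knockout border macrophage-like cells (1.35). The opposite directions drew attention, and the difference was not tested. The counts are small, with 6 wild-type and 26 knockout UMIs in monocyte-like cells and 1 and 11 in border macrophage-like cells. In both comparisons Cox6b2 reached the minimum mean CPM only through the group in which it stood higher. The other group lay below that minimum. Such admission favours a large ratio, so no conclusion is drawn from the opposite directions.

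The 14 rows with -ps symbols, which the report leaves out, held 628 UMIs in wild-type and 304 UMIs in knockout microglia-like cells, above the 3 UMIs that a count of 0 allows. Reads of such copies and of their parent genes may be hard to separate, and this was not tested.

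Cells of the unnamed cluster 9, used in no comparison, had a members' share of 1.82% of UMIs in 39 wild-type cells and 2.49% in 278 knockout cells, with medians of 1882 and 1713.5 UMIs per cell. Its leading genes include Pf4, Apoe, Mrc1 and Ndufc1.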

How the results depend on the processing

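No paired analysis was possible because each genotype is 1 library with no replicate to pair. Leaving out a replicate was likewise not possible. Counts of members past 1.5-fold are given below only where an alternative moved them by over 1.5 times. The share of all measured genes past 1.5-fold under each alternative is not given, so these counts have no background beside them. For knockout over wild-type in microglia-like cells, 61 members were past 1.5-fold, and 40 (cells with 4000 to 8000 UMIs), 37 (genes at a mean of at least 50 CPM), 21 (CPM with no centring) and 22 (CPM without mitochondrial and ribosomal protein UMIs, no centring). For knockout over wild-type in monocyte-like cells, 26 members were past 1.5-fold, and 56 (mixed cells counted in), 43 (marker gate per cell), 40 (each cell thinned to 2000 UMIs), 43 (cells with 4000 to 8000 UMIs), 10 (genes at a mean of at least 50 CPM), 51 (genes with at least 1 UMI in each group), 11 (CPM with no centring) and 12 (CPM without mitochondrial and ribosomal protein UMIs, no centring). For knockout over wild-type in border macrophage-like cells, 44 members were past 1.5-fold, and 17 (genes at a mean of at least 50 CPM), 15 (CPM with no centring) and 16 (CPM without mitochondrial and ribosomal protein UMIs, no centring). For monocyte-like over microglia-like cells in the wild-type library, 64 members were past 1.5-fold. For monocyte-like over microglia-like cells in the knockout library, 62 members were past 1.5-fold. For border macrophage-like over microglia-like cells in the wild-type library, 28 members were past 1.5-fold, and 0 (mixed cells counted in) and 16 (genes with at least 1 UMI in each group). For border macrophage-like over microglia-like cells in the knockout library, 14 members were past 1.5-fold, and 0 (mixed cells counted in), 31 (Leiden resolution 1.0), 32 (marker gate per cell), 31 (at most 5% mitochondrial UMIs) and 36 (no mitochondrial filter). With the ribosomal protein genes as the reference, more of the members past 1.5-fold were lower than higher in all 7 comparisons: 5 were past 1.5-fold for knockout over wild-type in microglia-like cells (0 higher), 9 were past 1.5-fold for knockout over wild-type in monocyte-like cells (3 higher), 17 were past 1.5-fold for knockout over wild-type in border macrophage-like cells (8 higher), 34 were past 1.5-fold for monocyte-like over microglia-like cells in the wild-type library (1 higher), 15 were past 1.5-fold for border macrophage-like over microglia-like cells in the wild-type library (3 higher), 33 were past 1.5-fold for monocyte-like over microglia-like cells in the knockout library (1 higher) and 12 were past 1.5-fold for border macrophage-like over microglia-like cells in the knockout library (1 higher). That reference was chosen after seeing the data. It moves all ratios of a comparison down by 1 constant, those of genes outside the members too. The median ribosomal protein gene stood above the median member in all 7 comparisons. Relative to all measured genes, its ratio was 0.80 for knockout over wild-type in microglia-like cells. For monocyte-like over microglia-like cells in the wild-type library it was 1.83. In both comparisons the median measured gene was thus itself over 1.5-fold lower on that scale. The ribosomal ratio was also past 1.5-fold for knockout over wild-type in border macrophage-like cells (0.69). For monocyte-like over microglia-like cells in the knockout library it was 1.63. It was within 1.5-fold for knockout over wild-type in monocyte-like cells (0.50) and for border macrophage-like over microglia-like cells (0.50 and 0.45). Named members past 1.5-fold whose direction then turned are given by their log2 ratio on that scale. For knockout over wild-type in microglia-like cells these were Atp5l (−0.19), Cox4i1 (−0.15), Cox5a (−0.025), Cox6a1 (−0.091), Cox6b1 (−0.094), Cox7a2 (−0.089), Cox7a2l (−0.17), Cox7b (−0.18), Cox7c (−0.024), Ndufa13 (−0.15), Ndufa4 (−0.012), Ndufb1 (−0.082), Sdhd (−0.21) and Uqcrh (−0.052). For knockout over wild-type in border macrophage-like cells these were Cox6b1 (−0.032), Ndufc2 (−0.0054) and Uqcrq (−0.039). For monocyte-like over microglia-like cells in the wild-type library these were Atp5a1 (−1.13), Atp5b (−0.91), Atp5g1 (−1.13), Atp5g2 (−1.23), Atp5g3 (−0.35), Cox4i1 (−0.14), Cox6a1 (−0.24), Cox6b1 (−0.13), Cox7a2l (−0.37), Cox7c (−0.24), Cox8a (−0.13), Ndufa13 (−0.51), Ndufa3 (−0.11), Ndufa4 (−0.51), Ndufa7 (−0.50), Sdhb (−1.20), Uqcrb (−0.78), Uqcrc1 (−1.07) and Uqcrq (−0.14). For monocyte-like over microglia-like cells in the knockout library these were Atp5a1 (−1.03), Atp5b (−0.80), Atp5g1 (−0.86), Atp5g2 (−0.86), Atp5g3 (−0.34), Cox4i1 (−0.28), Cox6a1 (−0.082), Cox7a2 (−0.12), Cox7a2l (−0.48), Cox7b (−0.031), Cox7c (−0.14), Cox8a (−0.33), Ndufa13 (−0.61), Ndufa3 (−0.21), Ndufa4 (−0.56), Ndufa7 (−0.46), Sdhd (−0.98), Uqcrb (−0.40), Uqcrc1 (−0.84) and Uqcrq (−0.18). Elsewhere a named member turned in 5 cases: Atp5g1 to −0.12 for monocyte-like over microglia-like cells in the wild-type library (marker gate per cell), Atp5g2 to −0.57 for monocyte-like over microglia-like cells in the wild-type library (cells with 4000 to 8000 UMIs), Cox7a2 to −0.056 for border macrophage-like over microglia-like cells in the wild-type library (mixed cells counted in), Uqcrq to −0.37 for border macrophage-like over microglia-like cells in the wild-type library (cells with 4000 to 8000 UMIs) and Ndufa9 to 0.032 for border macrophage-like over microglia-like cells in the knockout library (mixed cells counted in). For the minimum CPM fewer genes are compared, and the cause of the other changes was not tested. Over the 17 alternatives, 2285 values of the 33 named members past 1.5-fold were recomputed, of which 1889 stayed past it, 335 fell within it and 61 turned. The wild-type monocyte-like (58 cells) and border macrophage-like (28 cells) sums limit every result that rests on them.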

Other observations

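Among cells outside the 3 classes, 77 NK-like cells of the knockout library held 2.51% (2.46 to 2.56%) of UMIs in members, 27 B cell-like cells 1.98% (1.90 to 2.05%), 12 cells with basophil or mast cell markers 1.34% (1.25 to 1.44%) and 32 neutrophil-like cells 0.962% (0.905 to 1.02%). The knockout library's microglia-like cells, at 1.16%, lay between the neutrophil-like and the NK-like cells. Complex II made up 0.0165% of UMIs in the neutrophil-like and 0.0396% in the NK-like cells, and complex IV 0.324% and 0.798%. Values for these kinds are not given for the wild-type library, which held fewer than 10 usable cells of each.

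The unnamed cluster 11, led by H2-Eb1, H2-Aa and Cd74, held 0.970% of UMIs in members in 51 wild-type cells and 1.54% in 151 knockout cells. The unnamed cluster 5, of low depth, held 0.323% and 0.404%. Cells left out as mixed held 0.925% and 1.37%. In each of these groups the knockout share was above the wild-type share.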
